A study of Mus musculus with 2 samples.

Results

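Mir219a-1, Mir219a-2 and Mir338 are 3 of the 2202 mouse microRNA genes counted in these libraries. They were chosen by name, as the genes of the microRNAs miR-219 and miR-338 of myelinating oligodendrocytes. The rule used no measured value, but earlier results of these data were known when it was made. The material was hippocampus of wild-type female mice of strain B6NCrl, an otherwise untreated control described as a layer of hippocampus with no layer named. There were 2 libraries, biological replicates 2 and 1 of that single group, with separate biosample records and 1 shared donor record, and their age was not collected. No label says that the tissue came from separate animals, so the spread between the libraries may be technical, and the adapter-trimming document cited differs between them. MicroRNA genes were counted on the mm10 genome and the GENCODE M21 annotation from RNA below 30 nt.

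MicroRNAs are cut from the arms of RNA hairpins and repress messenger RNAs that pair with their seed, bases 2 to 8 of the mature strand. Oligodendrocytes wrap central axons in myelin, and the hippocampus holds such fibres in tracts such as the alveus and fimbria. In mice miR-219 and miR-338 are strongly enriched in maturing oligodendrocytes, where they help precursors stop dividing and differentiate by repressing factors of the precursor state, among them the growth factor receptor Pdgfra and the transcription factors Sox6 and Hes5. Only microRNA genes were counted here, so myelin messenger RNAs could not be used to check the cell type.

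The mature sequences decide which reads the files can give to which gene, so they are shown first, 5′ to 3′ with the seed in capitals, from RefSeq (GRCm38.p6). All 3 hairpins matched that table. It lists no 3p strand for Mir219a-2 or for the gene opposite Mir338, so none is printed for them.
miR-219a-5p, of Mir219a-1 and Mir219a-2: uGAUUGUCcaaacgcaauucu
miR-219a-1-3p, of Mir219a-1: aGAGUUGCgucuggacgucccg
miR-338-3p: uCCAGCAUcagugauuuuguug
miR-338-5p: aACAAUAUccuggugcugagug
miR-3065-5p, of the gene opposite Mir338: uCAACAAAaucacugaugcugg
No other mature microRNA of the table, 0 in each case, shared the seed of any of these 5. The miR-219a-5p strand is held whole by 2 hairpins, Mir219a-1 and Mir219a-2, whereas miR-219a-1-3p and the miR-338 strands are each held by 1.

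Mir219a-2 lies on the minus strand at chr2:29845631-29845727, between annotated genes, with the nearest on its lower-coordinate side, Urm1, 629 bases away. Mir219a-1 lies on the minus strand at chr17:34024983-34025092, between Ring1 (303 bases) and H2-Ke6 (941 bases), and partly overlaps the long noncoding RNA gene Gm26940 on its own strand. Mir338 lies on the minus strand at chr11:120014765-120014862, inside an intron of Aatk, the gene of apoptosis-associated tyrosine kinase, transcribed in the same direction. No other microRNA gene lay within 10 kb of any of them, apart from 1 on the opposite strand of each. Those are Mir219b opposite Mir219a-2 (65 shared bases), Mir3065 opposite Mir338 (87 shared bases) and Mir219c opposite Mir219a-1 (60 shared bases).

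**Figure D1:**
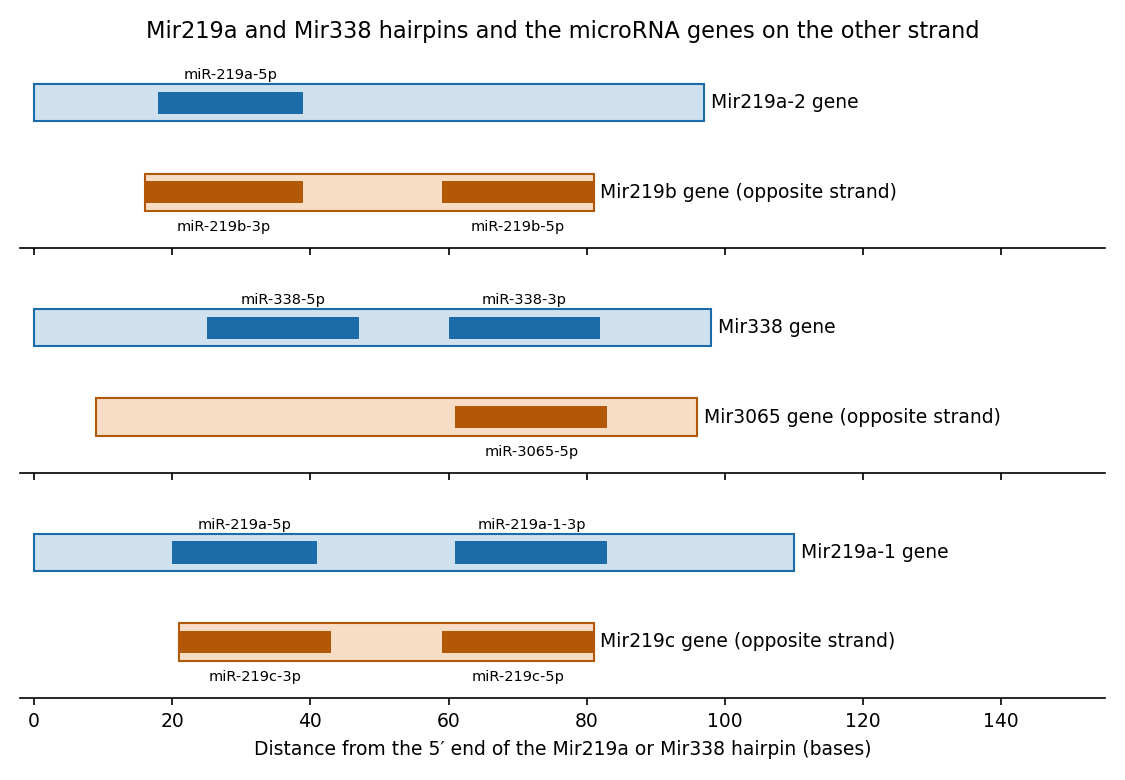
Each panel draws a gene in blue and the microRNA gene on its other strand in orange, with the mature strands listed in RefSeq as dark boxes, against distance from the 5′ end of the blue hairpin in bases. The strands of opposite genes face each other: miR-338-3p and miR-3065-5p overlap by 21 bases, and miR-219a-5p and miR-219b-3p by 21 bases.

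The Mir219a hairpins are printed with the stretch they share in capitals, because a read that falls wholly inside it maps to 2 genes.
Mir219a-1: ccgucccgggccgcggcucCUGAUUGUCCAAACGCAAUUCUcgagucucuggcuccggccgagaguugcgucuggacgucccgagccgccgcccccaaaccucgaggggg
Mir219a-2: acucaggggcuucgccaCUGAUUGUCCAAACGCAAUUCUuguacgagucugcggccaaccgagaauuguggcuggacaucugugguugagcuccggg
The shared stretch is 22 bases long and contains all 21 bases of miR-219a-5p. Of the 76 windows of 22 bases in the Mir219a-2 hairpin 1 was shared with another annotated hairpin, and of the 75 windows of 23 bases 0 were. For Mir338, 0 of 81 windows of 18 bases were shared. Reads that map to more than 1 place form a class of their own in the files, and that class and the gene counts add up to the same read total in each column. From these sums it was inferred that such reads reached no gene, as no source used here states the counting settings. On that reading the counts of both Mir219a genes leave out exact miR-219a-5p reads. Which arm the counted reads came from is not in the tables used here. The Mir219a counts below are therefore reads that extend past, or lie outside, the shared stretch, and they are not the level of miR-219a-5p in the tissue.

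The libraries held 14300757 reads in replicate 2 and 15794475 in replicate 1, of which 5901107 and 6713867 fell on microRNA genes in the sense column. Reads mapped to several places made up 45.9% in replicate 2 and 43.9% in replicate 1. Levels are given as CPM, sense counts scaled to a total of 1000000 over all microRNA genes. Across the 466 genes that averaged 10 or more counts, Pearson's r of log2(CPM + 1) was 0.982, as a description across genes that share both libraries, and edgeR gave a common coefficient of variation of 34.2%.

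Mir219a-2 and Mir338 were among the 100 most abundant microRNA genes, and Mir219a-1 was far below them. Mir219a-2 had 9861 sense counts in replicate 2, or 1671 CPM (exact 95% interval 1638 to 1704), and 34418 counts in replicate 1, or 5126 CPM (5073 to 5181). Its mean was 3399 ± 2443 CPM (SD, n = 2), place 40 of 2202. The libraries put it at place 60 in replicate 2 and place 36 in replicate 1. Intervals cover counting error only, since no molecular identifiers are in the files.

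Mir338, which shares no 18-base window with another annotated hairpin, differed 1.28-fold in CPM between the libraries, against 3.07-fold for Mir219a-2. It had 8925 counts in replicate 2, or 1512 CPM (exact 95% interval 1481 to 1544), and 13031 in replicate 1, or 1941 CPM (1908 to 1974). The mean was 1727 ± 303 CPM (SD, n = 2), place 66 of 2202, with place 65 in replicate 2 and place 64 in replicate 1. Mir219a-1 had 54 counts in replicate 2, or 9.15 CPM (6.87 to 11.9), and 71 in replicate 1, or 10.6 CPM (8.26 to 13.3), a mean of 9.86 ± 1.01 CPM (SD, n = 2) at place 309. Of the 2202 genes, 787 had a count in either library.

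The order of levels was Mir219a-2, Mir338, Mir219a-1 in both libraries. The values of Mir338 (1512 and 1941 CPM) lay partly inside the range of Mir219a-2 (1671 to 5126 CPM), so their means did not differ beyond the spread between libraries. Within each library Mir219a-2 was the higher, with 1.10 counts per count of Mir338 in replicate 2 and 2.64 in replicate 1. Mir219a-1 lay between 165-fold and 485-fold below these 2 genes. The 3 genes together held 18840 counts in replicate 2 and 47520 in replicate 1, which were 0.319% and 0.708% of the sense counts. For scale Mir139, the gene with the highest mean, had 188348 CPM in replicate 2 and 87249 in replicate 1.

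**Figure D2:**
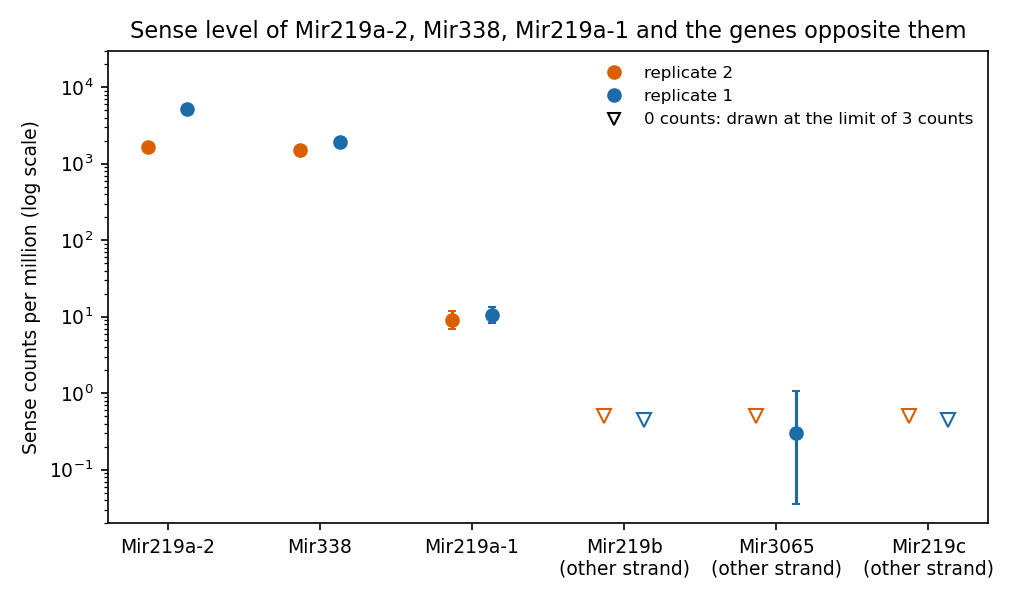
Sense CPM on a log axis for Mir219a-2, Mir338 and Mir219a-1 and for the microRNA genes on their other strands, with exact 95% counting intervals and open triangles for 0 counts drawn at the 3-count limit. Mir219a-2 and Mir338 stand between 1512 and 5126 CPM, Mir219a-1 near 10 CPM, and the opposite genes below 1 CPM.

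In the list of all genes, Mir219a-2 stood by mean level below Mir487b (3967 CPM) and Mir674 (3509 CPM) and above Mir320 (3217 CPM) and Mir378a (3100 CPM). Mir338 stood below Mir1839 (1807 CPM) and Mir337 (1729 CPM) and above Mir154 (1656 CPM) and Mir204 (1593 CPM). Mir219a-1 stood below Mir1955 and Mir6928 (9.99 CPM) and above Mir6900 (9.82 CPM) and Mir1264 (9.72 CPM). All 12 of these neighbours had ranges over the libraries that overlapped the range of the gene beside them, so no place in this order is resolved beyond the spread. Ranges do not compare genes within a library, and no such ratio was computed for these neighbours.

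Nearly all counts at these 3 places were on 1 strand. Mir219b, opposite Mir219a-2, had 0 sense counts in both libraries, which allows up to 0.508 CPM in replicate 2 and 0.447 CPM in replicate 1, a limit of 3 counts per library. Mir219a-2 was therefore at least 3287-fold higher than Mir219b in replicate 2 and at least 11473-fold higher in replicate 1. Mir3065, opposite Mir338, had 0 counts in replicate 2 and 2 in replicate 1. Mir338 was at least 2975-fold higher than Mir3065 in replicate 2, and in replicate 1 the ratio was 6516 (exact 95% interval 1803 to 53806). Mir219c, opposite Mir219a-1, also had 0 counts in both, so Mir219a-1 was at least 18-fold higher in replicate 2 and at least 23.7-fold higher in replicate 1. Each at-least value divides the observed count by the 3-count limit. Unlike the exact interval, it leaves out the counting error of the higher gene. Mir219b shares 22 bases and Mir219c 20 bases with another annotated hairpin, so the bounds against them cover only reads outside the shared stretch, for the genes of both strands.

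The antisense column held the same reads a second time. Its values were 9861 in replicate 2 and 34418 in replicate 1 for Mir219b, and 8925 and 13031 for Mir3065. These equal the sense counts of Mir219a-2 and Mir338, so every read counted for those genes touched the bases they share with the opposite gene. For Mir219c the antisense values were 54 and 70, against 54 and 71 sense counts of Mir219a-1, which leaves 1 read in replicate 1 outside the shared bases. That read is also the 1 count of Mir219a-1 in the column that ignores strand. Mir219a-2 and Mir338 had 0 there in both libraries, since a read that touches genes on both strands is ambiguous without strand. The class of ambiguous reads without strand held 368580 reads in replicate 2 and 437144 in replicate 1, and 0 in the sense column.

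Loss of the count without strand was shared with other genes that lie opposite a microRNA gene. In all, 64 genes have one, which includes all 3 genes described here, and 26 of them averaged 10 or more counts and were the higher gene of their pair. All 26 kept under 1% of their sense counts in the column without strand, and 22 kept 0. In 24 of the 26 pairs over 99% of the counts were on the higher gene, with Mir24-1 over Mir3074-1 (67.8%) the most even. Mir24-1 shares 28 bases with another annotated hairpin, so its count leaves out shared reads. By mean level Mir219a-2, Mir338 and Mir219a-1 took places 4, 9 and 23 among the 26. The strand bias of Mir219a-2 and Mir338 is thus what most such pairs had.

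**Figure D3:**
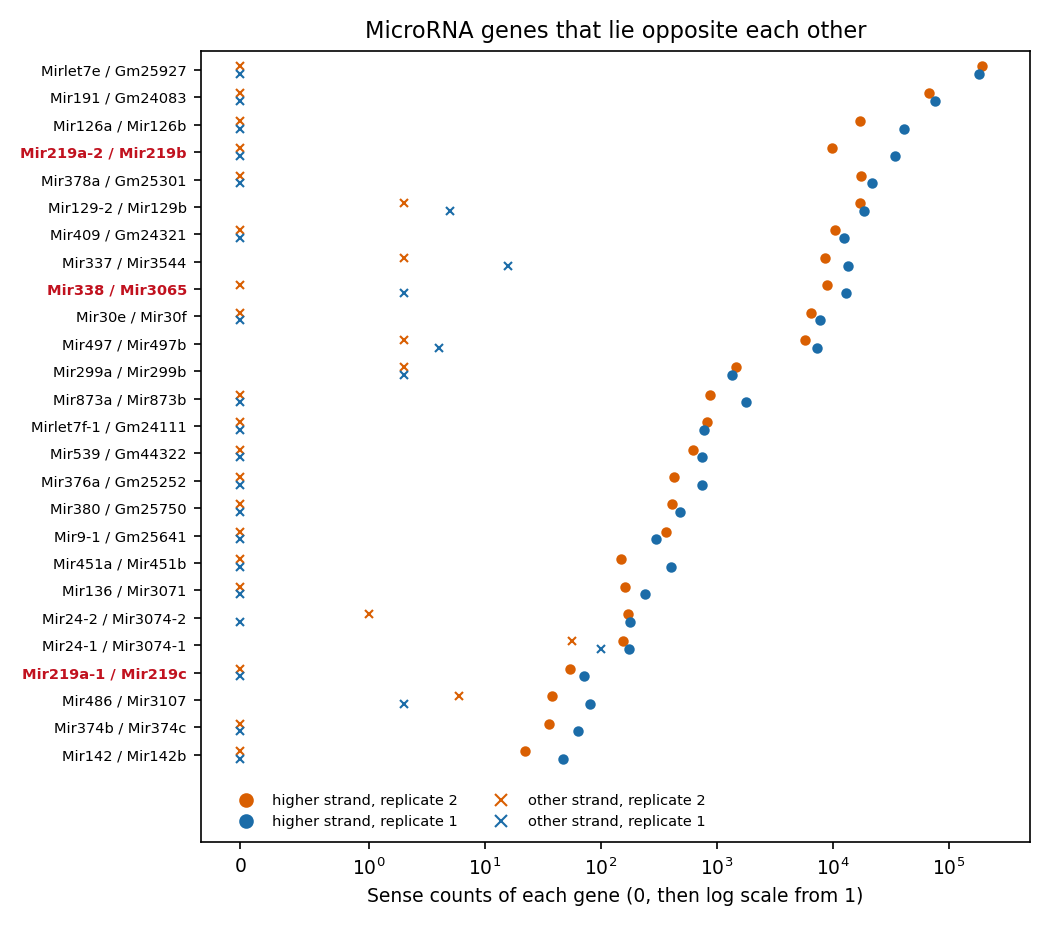
Sense counts of 26 pairs of microRNA genes on opposite strands (0, then a log scale), with dots for the higher gene and crosses for the other, in replicate 2 and replicate 1. The crosses sit at 0 to 2 counts for the 3 pairs named in red, against 54 to 34418 counts for the dots.

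The split between the Mir219a copies was the most uneven among comparable pairs. Mir219a-2 had 99.5% of the pair's counts in replicate 2 (exact 95% interval 99.3 to 99.6) and 99.8% in replicate 1 (99.7 to 99.8). The ratio of Mir219a-2 to Mir219a-1 was 183 in replicate 2 (exact 95% interval 140 to 243) and 485 in replicate 1 (384 to 621), and these intervals did not overlap. Across 22 pairs of genes that carry an identical mature strand in exactly 2 hairpins, the share of the leading gene had a median of 80.8% and a range of 50.4% to 99.6%, as means over the libraries. Mir219a-2 was first, and the 2 next pairs, led by Mir194-2 and Mir3074-1, had 100% in replicate 1 on 89 and 100 counts. The shares describe the reads outside the shared strand, so they give no split of miR-219a-5p itself, and the place of Mir219a-2 was not tested.

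**Figure D4:**
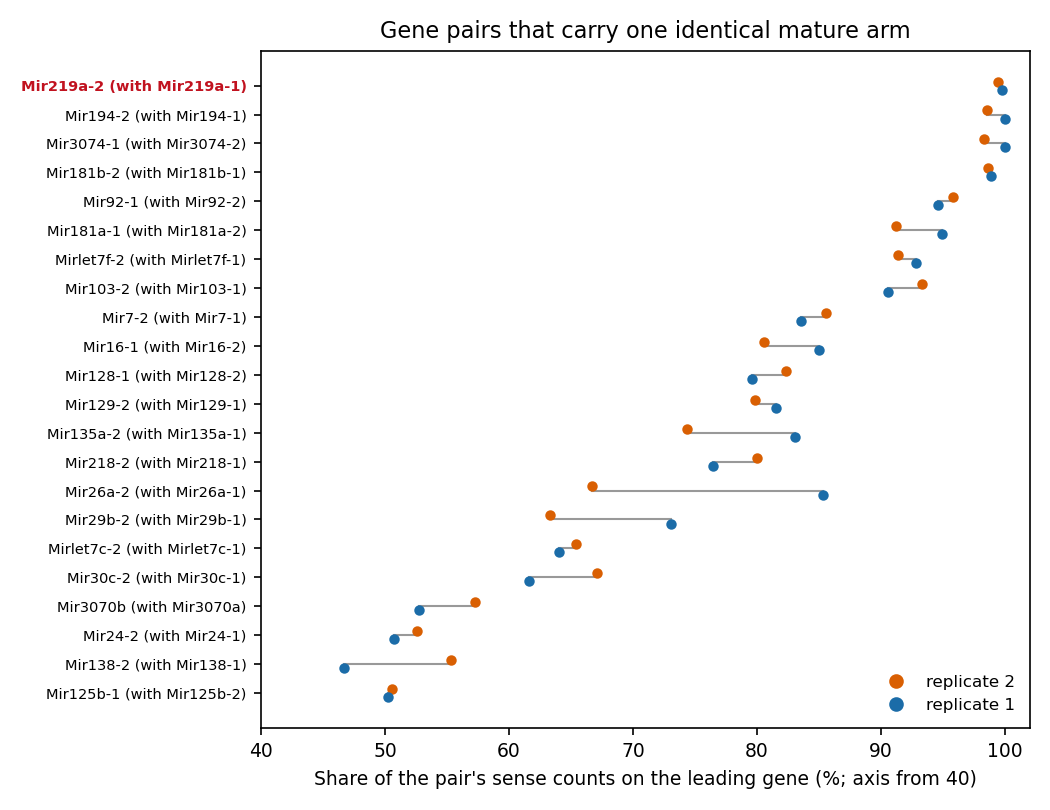
Share of a pair's sense counts on the leading gene (%, axis from 40) for 22 pairs that carry an identical mature strand, ordered by the mean over replicate 2 and replicate 1, with the leading gene taken by mean CPM. The Mir219a pair is at the top, at 99.5% and 99.8%.

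Between the libraries Mir219a-2 differed most and Mir338 little. The comparison is the log2 ratio of replicate 2 to replicate 1 with 0.5 counts added to each, scaled by TMM (trimmed mean of M values, edgeR). A 2-sided Fisher exact test compared counts at the total sense depths, so its p goes with the ratio under total counts, not TMM. Benjamini-Hochberg adjustment covered 466 genes at 0.05, and a gene is called only where 3 scalings give 1 sign. Mir219a-2 was lower in replicate 2, at -1.46 (counting SE 0.02), a 2.74-fold difference, and its adjusted p was too small for the software to represent. Mir338 was lower in replicate 2 by far less, at -0.20 (counting SE 0.02), with a Fisher adjusted p of 7.05e-74. By an exact binomial test at TMM depths its adjusted p was 4.25e-23. Mir219a-1, at -0.04 (counting SE 0.26), did not pass (Fisher adjusted p = 0.584).

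So 2 of the 3 genes were called lower and 0 higher, where 35.6% of the 466 genes tested were called lower and 18% higher. At TMM depths the exact binomial test called 137 of the 466 lower and 103 higher. Either test compares these libraries and not conditions, and covers counting error only. In size of difference, Mir219a-2 exceeded 94.0% of the 466 genes, with 27 larger. Of the 89 genes with a mean of 1000 CPM or more, 3 differed by more, and Mir298 (-4.05) and Mir107 (-2.19) were farther lower. Mir338 differed by more than 28.8% of the 466 and Mir219a-1 by more than 7.30%, so both lay in the lower part of the spread. The median size over all genes was 0.36, and 13.3% of genes reached 2-fold.

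**Figure D5:**
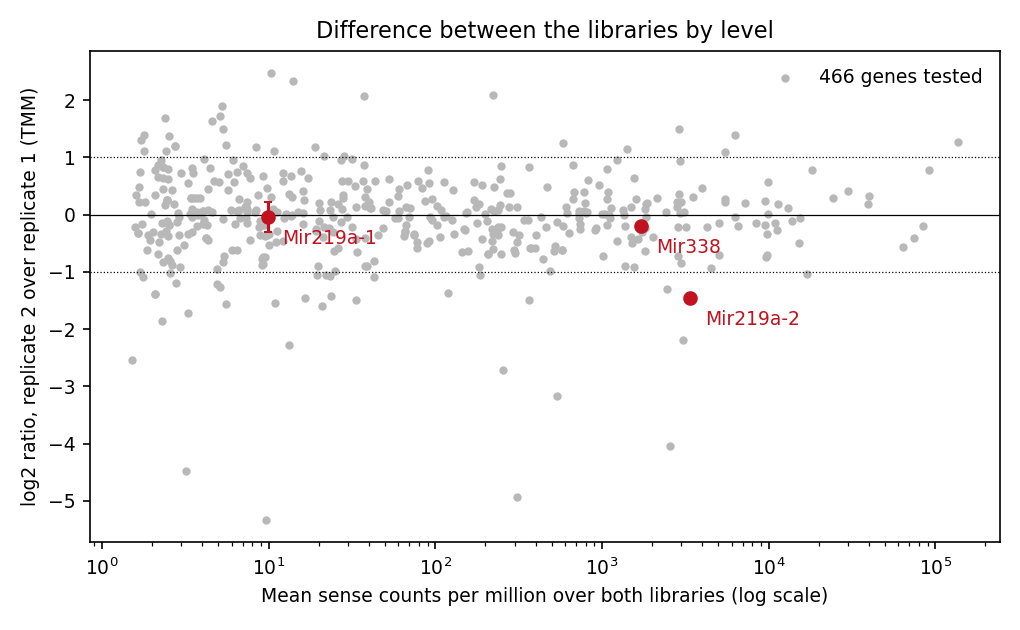
Log2 ratio of replicate 2 over replicate 1 under TMM against mean sense CPM (log scale) for 466 genes, with the 3 genes in red, counting SE as bars and dotted lines at 2-fold. Mir219a-2 lies at -1.46, below the 2-fold line, and Mir338 and Mir219a-1 lie at -0.20 and -0.04, near 0.

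The scaling shifted these values but not their order. Under total counts the ratios were -1.62 for Mir219a-2, -0.36 for Mir338 and -0.21 for Mir219a-1, while the median over all genes was -0.18, against -0.02 under TMM. The distance of a gene from that median is the same under both by construction. A ratio within a library needs no scaling. Mir219a-2 had 1.10 counts per count of Mir338 in replicate 2 (exact 95% interval 1.07 to 1.14) and 2.64 in replicate 1 (2.59 to 2.70), so this ratio differed between the libraries beyond counting error. The ratio of Mir338 to Mir219a-1 was 165 in replicate 2 (127 to 220) and 184 in replicate 1 (145 to 235), with intervals that overlap. In bulk tissue fewer oligodendrocytes, less microRNA per cell and a technical difference between the libraries cannot be told apart. By the inference above, Mir219a-2 counts hold only reads past or outside the shared stretch. The adapter-trimming document cited also differs between the libraries, and the part of either was not tested. With 1 library on each side there is no replicate check.

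Genes with nearly the same ratio were named by the gap in log2 ratio over the 2 libraries among 465 other genes. For Mir219a-2 they were Mir669h (48 counts in replicate 2 and 169 in replicate 1), Mir103-2 (70 and 240) and Mir296 (1043 and 3738), at -1.46, -1.42 and -1.49. For Mir338 they were Mir181d, Mir6907 and Mir541, each at -0.20, and for Mir219a-1 they were Mir410, Mir344d-3 and Mir100, each at -0.04. With 2 libraries this likeness is a single number per gene.

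Markers of other cells also differed between the libraries. Calls went in both directions within each list of 7 or more genes. Each shorter list had only 1 or 2 tested genes, with calls in 1 direction, and a list with 1 called gene allows no other outcome. The 14 neuron genes summed to 35136 CPM in replicate 2 and 35203 in replicate 1, and of the 11 tested 4 were lower in replicate 2 and 4 higher. Among them Mir128-1 had 8772 CPM in replicate 2 and 3723 in replicate 1, while Mir132 had 12540 and 15073 CPM. Mir128-1 shares 23 bases with another hairpin, so its counts too leave out shared reads. Stretches of 18 or more shared bases are found in 9 of the 14 neuron genes and 5 of the 8 astrocyte genes. Mir124a-2 was at 0, but the Mir124a copies share 32 bases, so exact reads of the shared strand were not counted there. The endothelial gene Mir126a had 2897 CPM in replicate 2 and 6191 in replicate 1. The 2 mural genes summed to 1504 and 2479 CPM, of which Mir143, also in the astrocyte list, had 1327 and 2314 CPM and was lower, while Mir145a had 177 and 165 CPM and was not called. The sum of 3 erythrocyte genes was 32.7 CPM in replicate 2 and 73.1 in replicate 1, with both tested genes lower. The 8 astrocyte genes summed to 58394 CPM in replicate 2 and 52293 in replicate 1, yet 4 were lower and 2 higher, and the higher ones, Mir23b and Mir125a, are also in the oligodendrocyte list described next. The 7 leukocyte and microglia genes, with Mir142b at 0, summed to 2246 and 2028 CPM, yet of 6 tested 4 were lower and 2 higher, and Mir150 alone had 1815 CPM in replicate 2 and 1303 in replicate 1. The 7 choroid plexus and ependyma genes, with Mir449b and Mir449c at 0, summed to 1747 and 2056 CPM, with 3 of 5 tested lower and 1 higher. The 3 retina and sensory genes summed to 142 CPM in replicate 2 and 95.5 in replicate 1, with both tested genes higher. Of 5 muscle genes Mir206, which shares no stretch with another hairpin, had 19.3 CPM in replicate 2 and 32.6 in replicate 1 and was lower, and Mir1a-1, Mir1a-2, Mir133a-1 and Mir133a-2 were at 0. The Mir1a copies share 28 bases and the Mir133a copies 31, so those zeros do not bear on muscle RNA. The part of these cell types in the Mir219a-2 difference was not tested.

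Other microRNAs with reported roles in oligodendrocyte precursors or myelination differed in both directions. Of 31 listed genes 29 matched a name of the annotation (Mir7a-1 and Mir7a-2 did not), 20 averaged 10 or more counts, 9 of these were lower in replicate 2, 6 were higher and 5 were not called, where 35.6% of all genes tested were lower and 18% higher. The median log2 ratio of those 20 genes was -0.02 under TMM and -0.19 under totals, beside -0.02 and -0.18 over all genes tested. This median and the counts above leave out the genes of miR-7a-5p, which the annotation names Mir7-1 and Mir7-2. Mir7-1 had 149 counts in replicate 2 and 354 in replicate 1, and Mir7-2 had 881 and 1800. Of the 29 matched genes, 17 share 18 or more bases with another annotated hairpin. In the list, Mir23b, at 25463 CPM in replicate 2 and 23423 in replicate 1, was higher at 0.28, and Mir125a, known in rodents to slow the maturation of oligodendrocyte precursors, had 21976 and 14335 CPM and was higher at 0.78. Mir23a, whose product is known in mice to repress lamin B1 and favour myelination, had 12893 and 13349 CPM, and its sign depended on the scaling.

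The list also holds the copies of miR-138, another microRNA induced as mouse oligodendrocytes differentiate and also abundant in neurons. Mir138-2 had 2503 CPM in replicate 2 and 3259 in replicate 1, at -0.22, and Mir138-1 had 2024 and 3716 CPM, at -0.72, both lower in replicate 2. These copies share 24 bases, so their counts too leave out shared reads. Mir7b, of the miR-7 family, had 893 CPM in replicate 2 and 1865 in replicate 1 and was lower at -0.90. Mir9-1, which has an annotated gene opposite (Gm25641) and shares 33 bases with another hairpin, had 362 counts in replicate 2 and 299 in replicate 1 and was higher at 0.62. In the same list Mir219b, Mir219c, Mir19a, Mir199a-1 and Mir297c had 0 counts in both libraries.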

How the data were processed

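Read counts of microRNA genes were analysed in 2 libraries of 1 group. The authors deposited raw whole-number counts per gene in 3 columns, which the values identify as without strand, sense and antisense, and the deposited notes name mm10 and GENCODE M21. The sources used here name no aligner or counting program. The 4 read classes (unmapped, several places, outside genes, ambiguous) were left out of library sizes.

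All 2202 gene identifiers matched GENCODE M21. Levels were computed as CPM of sense counts. Ratios were scaled by TMM over all detected genes (edgeR 4.0.16) and by DESeq2 1.42.0 size factors or totals as alternatives. Genes that averaged 10 or more counts were tested by Fisher's exact test at total sense counts in scipy 1.17.1. Only this test step was tried on simulated counts, which held counting error alone and were scaled by totals. Shared stretches were sought among annotated hairpins only, on both strands, and copies elsewhere in the genome were not searched. Intervals are exact Clopper-Pearson at 95%, and a count of 0 was given a limit of 3 counts. Levels have no test.

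The genes and lists were chosen with earlier results of these data known. Genes were named by rule: the 3 genes, microRNA genes opposite or within 10 kb, 2 level neighbours on each side, 3 nearest ratios, and the 6 leading genes of the oligodendrocyte list with any that have an opposite gene, and the gene with the highest mean. Mir298, Mir107, Mir24-1, Mir128-1, Mir132, Mir143, Mir145a, Mir150, Mir206, Mir194-2, Mir3074-1, Mir7-1, Mir7-2 and genes at 0 were named after their values were seen.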

Additional observations from a re-analysis of the deposited data

How the results depend on the processing

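The counts without strand gave 0 CPM for Mir219a-2 and Mir338 and 0.0797 CPM for Mir219a-1 and for the sum of the 3 genes, and the antisense column gave 0 for Mir219a-2 and Mir219a-1 and 2.29 CPM for Mir338 and the sum; both follow from the opposite genes, and no ratio could be fitted there. Scaled to all reads in place of sense counts, Mir219a-2 had 1434 CPM, Mir338 had 725 CPM, Mir219a-1 had 4.14 CPM and the sum was 2163 CPM, by a larger divisor. Without Mir139 in the total Mir219a-1 had 11.4 CPM. Leaving out 1 library gave the value of the other: 1671 to 5126 CPM for Mir219a-2, 1512 to 1941 for Mir338, 9.15 to 10.6 for Mir219a-1, 3193 to 7078 for the sum, and 1.10 to 2.64 for the ratio of Mir219a-2 to Mir338. Mir219a-2 and Mir338 stayed lower in replicate 2 and called under every scaling, filter, added count and test run. Mir219a-1 turned to 0.059 with TMM over the genes that averaged 50 or more counts, a setting chosen after seeing the data, and was called under none; its adjusted p ranged from 0.526 to 0.955. Of 250 genes called, 166 were lower and 84 higher; without Mir139 in the total 136 were lower and 118 higher, and by an exact binomial test at TMM depths 137 and 103. No paired analysis was possible because there is 1 group. Depth limits Mir219a-1, and shared sequence limits both Mir219a genes.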

Other observations

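Of the 27 genes that differed more between the libraries than Mir219a-2, few were abundant. Mir107, named after its value was seen, had 5932 counts in replicate 2, against 34549 in replicate 1, and Mir298 had 1542 against 32467. Mir103-2, of the same family as Mir107, had 70 counts in replicate 2, against 240 in replicate 1, a log2 ratio close to that of Mir219a-2. Mir103-2 shares 27 bases and Mir107 24 bases with another annotated hairpin, so their counts too leave out shared reads. Among opposite pairs Mir24-1 and Mir3074-1 were the most evenly split, with 156 counts against 57 in replicate 2, and 174 against 100 in replicate 1. Mir24-1 shares 28 bases with another annotated hairpin, so this split covers only reads outside shared stretches.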
